A study of Mus musculus with 6 samples.

Results

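The Gimap genes encode a family of GTP-binding proteins of lymphocytes, and the levels of their transcripts were compared between regulatory T cells (Treg) of Mbd2 knockout and wild-type mice. All probe sets annotated to a single gene among Gimap1, Gimap3, Gimap4, Gimap5, Gimap6, Gimap7, Gimap8 and Gimap9 were taken. This gave 6 of the 22626 probe sets that were not controls. They cover 5 of the 8 genes, with 2 probe sets for Gimap4 and 1 each for Gimap1, Gimap3, Gimap6 and Gimap7. Gimap5, Gimap8 and Gimap9 had no probe set annotated to them alone and were not analysed here. Older names in this family cross over, and Gimap5 is also listed as a synonym of Gimap3. The probe set given here as Gimap3 is named through its transcript accession and gene identifier.

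RNA came from CD4+CD25+ Treg isolated with magnetic beads, and each of 6 single-colour arrays measured 1 sample. There were 3 arrays of Mbd2-/- mice, which lack a protein that binds methylated DNA, and 3 arrays of wild-type mice. Both groups were on the Balb/c background, and the submitters call the samples independent. The labels do not state age, sex, any pooling of animals or the purity of the separated cells, so p-values measure the spread between these samples.

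GIMAP proteins (GTPases of immunity-associated proteins) share a GTP-binding domain and mostly sit on the membranes of organelles. They are expressed mainly in lymphocytes and are best known for their part in the survival and homeostasis of T cells. In mouse and rat, loss of Gimap5 leads to a shortage of peripheral T cells, and mouse Gimap1 is needed for mature T and B cells. Gimap3, a close relative of Gimap5, is found on mitochondria and other membranes. Gimap4 has been linked to the pace of T cell death, and Gimap6 binds Gabarapl2, a protein of the autophagy machinery. Human GIMAP7 is a GTPase found on lipid droplets.

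The 8 genes lie in a row on chromosome 6, in the order Gimap8, Gimap9, Gimap4, Gimap6, Gimap7, Gimap1, Gimap5 and Gimap3. The promoter windows of the 5 measured genes are shown because all 5 had lower mean signals in knockout cells and the protein missing there is one that binds methylated CpG. Each window runs from 250 bases before to 50 bases after the annotated start (RefSeq, GRCm38.p6), is written 5′ to 3′ on the gene's strand, and has each CpG dinucleotide in capitals.
Gimap7 (chr6:48718371-48718670, plus strand): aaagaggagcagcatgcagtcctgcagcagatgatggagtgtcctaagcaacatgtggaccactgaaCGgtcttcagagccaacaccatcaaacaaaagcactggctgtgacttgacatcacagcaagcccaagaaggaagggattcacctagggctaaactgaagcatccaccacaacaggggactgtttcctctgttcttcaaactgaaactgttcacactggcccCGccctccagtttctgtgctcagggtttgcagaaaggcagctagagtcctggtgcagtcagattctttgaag
Gimap4 (chr6:48684328-48684627, plus strand): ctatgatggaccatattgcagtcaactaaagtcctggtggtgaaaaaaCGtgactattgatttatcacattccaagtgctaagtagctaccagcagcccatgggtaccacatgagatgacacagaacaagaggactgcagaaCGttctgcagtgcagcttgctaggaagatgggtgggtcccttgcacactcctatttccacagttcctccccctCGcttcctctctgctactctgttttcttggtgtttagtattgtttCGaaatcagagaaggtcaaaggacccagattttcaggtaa
Gimap6 (chr6:48708195-48708494, minus strand): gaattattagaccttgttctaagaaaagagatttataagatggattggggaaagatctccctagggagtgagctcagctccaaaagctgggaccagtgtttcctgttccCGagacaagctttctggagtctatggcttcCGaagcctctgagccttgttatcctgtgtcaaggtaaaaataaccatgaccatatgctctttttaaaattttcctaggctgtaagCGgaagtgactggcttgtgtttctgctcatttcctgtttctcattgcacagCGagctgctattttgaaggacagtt
Gimap3 (chr6:48770802-48771101, minus strand): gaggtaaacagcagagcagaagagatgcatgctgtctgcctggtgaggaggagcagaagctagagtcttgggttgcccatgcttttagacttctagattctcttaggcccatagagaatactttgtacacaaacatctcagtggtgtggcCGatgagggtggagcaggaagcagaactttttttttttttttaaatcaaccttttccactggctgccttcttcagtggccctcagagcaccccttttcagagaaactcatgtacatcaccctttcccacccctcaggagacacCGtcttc
Gimap1 (chr6:48738797-48739096, plus strand): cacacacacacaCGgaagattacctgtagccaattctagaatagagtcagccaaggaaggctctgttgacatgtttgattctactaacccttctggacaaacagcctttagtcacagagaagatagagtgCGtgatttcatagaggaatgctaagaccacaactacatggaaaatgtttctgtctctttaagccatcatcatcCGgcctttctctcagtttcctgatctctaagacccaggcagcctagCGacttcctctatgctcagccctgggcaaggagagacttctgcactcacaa

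The 5 windows of measured genes held 2 to 4 CpG each, against a median of 7 over 32851 windows of the same length, of which 38.0% held 4 or fewer. Gimap7 and Gimap3 had 2 each, and Gimap4, Gimap6 and Gimap1 had 4 each. Their GC content ran from 43.3% to 50.7%, against a median of 52.7%. The motif GGAA, the core bound by ETS factors, was searched on both strands and was present in 5 of the 5 windows, most often in Gimap6 with 7 matches. It was present in 96.0% of all windows. The motif TGTGGT, bound by RUNX factors, was found on either strand in the windows of Gimap4, Gimap7 and Gimap1 and in 16.8% of all windows. The search motifs do not overlap. Neither methylation nor binding of Mbd2 to these windows was measured in these files, so the CpG counts describe the sequence only.

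The array of wild-type replicate 3 differed from the rest. Over all probe sets it correlated at 0.749 to 0.767 with the other arrays, which correlated at 0.956 to 0.997 among themselves. Its mean over the tested probe sets was 6.56, against 7.13 to 7.19 on the others, and its spread was narrower (SD 1.36, against 1.78 to 1.83). Values are therefore given with all 6 arrays and with 5 arrays, without wild-type replicate 3. Both Mbd2 probe sets were lower in 3 of 3 knockout arrays than in any wild-type array, at log2 differences of -2.21 (limma adjusted p = 0.548) and -2.04 (limma adjusted p = 0.0619) with 6 arrays. With 5 arrays the differences were -2.80 (limma adjusted p = 0.0019) and -2.18 (limma adjusted p = 0.0017), and both passed the threshold. The labels do not say which part of Mbd2 was removed, so these probe sets may not report on it. Foxp3, the defining transcription factor of Treg, was at 7.98, 6.62 and 8.17 on the log2 scale in knockout arrays and at 8.83, 8.74 and 6.93 in wild-type arrays. Every knockout array lay below wild-type replicates 1 and 2. The Foxp3 difference was -1.19 with 5 arrays (SE 0.46, limma adjusted p = 0.212) and -0.58 with 6 (SE 0.65, limma adjusted p = 0.829), and its part in the Gimap differences was not tested. All values below are log2 signals after RMA (robust multi-array average) by the authors, and differences are knockout minus wild type.

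All 6 Gimap probe sets had lower means in knockout than in wild-type cells, in both fits. Without wild-type replicate 3, those of Gimap7 and Gimap4 fell past the threshold of an adjusted p under 0.05. With all 6 arrays none passed it, and wild-type replicate 3 lay below every knockout array for 4 of the 6 probe sets. A difference below 0 was seen for 60.7% of all tested probe sets with 5 arrays and for 36.8% with 6. The number of arrays limits the precision, and fewer T cells in a sample and less of a transcript in each T cell cannot be told apart in bulk RNA.

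Gimap7, on probe set 1425084_at, had the largest difference with 5 arrays. It was at 9.25, 9.09 and 9.05 in knockout replicates 1, 2 and 3, and at 10.29, 10.39 and 9.04 in wild-type replicates 1, 2 and 3. The knockout arrays lay close together and at least 1.04 below wild-type replicates 1 and 2, while wild-type replicate 3 was at the knockout level. With 5 arrays the difference was -1.21 (SE 0.11, 95% interval -1.47 to -0.95, limma adjusted p = 0.0124), a knockout to wild-type ratio of 0.432. With 6 arrays it was -0.78 (SE 0.39, limma adjusted p = 0.829). Of all 13575 tested probe sets, 0.273% had a lower difference than Gimap7 with 5 arrays and 1.52% with 6.

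Gimap4 was measured by 2 probe sets, both designed on the same transcript accession. The first, 1424374_at, was at 10.69, 10.53 and 10.73 in knockout arrays and at 11.59, 11.57 and 10.25 in wild-type arrays. The second, 1424375_s_at, was at 11.38, 11.18 and 11.43 in knockout arrays and at 12.16, 12.11 and 11.58 in wild-type arrays. On the first, wild-type replicate 3 was the lowest of all arrays, and on the second it lay above every knockout array, so that the groups did not overlap. Without that array the differences were -0.93 (SE 0.10, limma adjusted p = 0.0214) and -0.81 (SE 0.11, limma adjusted p = 0.0379), and both probe sets passed the threshold. With it they were -0.49 (SE 0.40, limma adjusted p = 0.829) and -0.62 (SE 0.25, limma adjusted p = 0.829).

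Gimap3, on probe set 1449220_at, was at 10.48, 10.13 and 10.63 in knockout arrays and at 11.49, 11.38 and 11.00 in wild-type arrays. It was separated between the groups in all 6 arrays, with a gap of 0.36 between the highest knockout and the lowest wild-type array. Its difference was -0.88 with 6 arrays (SE 0.25, 95% interval -1.48 to -0.27, limma adjusted p = 0.782) and -1.02 with 5 (SE 0.16, 95% interval -1.42 to -0.62, limma adjusted p = 0.0521), which missed the threshold in both. Gimap3 and Gimap5 are close relatives, and whether this probe set also detects Gimap5 transcripts was not tested.

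Gimap6, on probe set 1427891_at, was at 9.69, 9.21 and 9.74 in knockout arrays and at 10.62, 10.48 and 9.13 in wild-type arrays. Knockout replicate 2 was the lowest of its group and wild-type replicate 3 the lowest of all arrays. The difference was -1.0 with 5 arrays (SE 0.18, limma adjusted p = 0.0609) and -0.53 with 6 (SE 0.44, limma adjusted p = 0.829), and neither passed.

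Gimap1, on probe set 1449988_at, had the smallest difference in both fits. It was at 9.13, 8.71 and 9.15 in knockout arrays and at 9.60, 9.44 and 8.20 in wild-type arrays. Wild-type replicate 3 was far below all other arrays here. The difference was -0.52 with 5 arrays (SE 0.16, 95% interval -0.92 to -0.12, limma adjusted p = 0.153) and -0.08 with 6 (SE 0.41, 95% interval -1.08 to 0.91, limma adjusted p = 0.95).

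**Figure D1:**
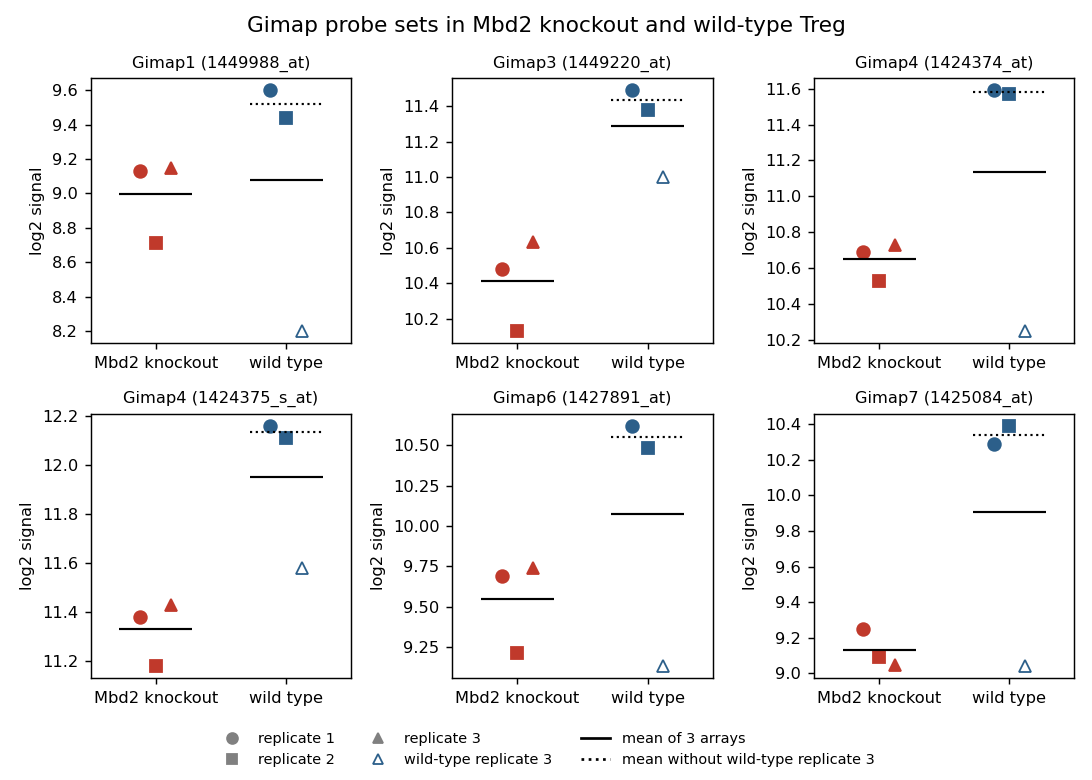
Log2 signal (vertical axis, a separate range in each panel) of the 6 Gimap probe sets in Mbd2 knockout (left) and wild-type (right) arrays, 1 point per array, with solid lines at the mean of 3 arrays and dotted lines at the wild-type mean without replicate 3 (open triangle). The knockout points lie below wild-type replicates 1 and 2 in every panel, while wild-type replicate 3 lies above all knockout arrays only for Gimap3 and for Gimap4 probe set 1424375_s_at.

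Counted together, 3 of 6 Gimap probe sets passed the threshold of an adjusted p under 0.05 with 5 arrays, all of them lower in knockout, where 0.729% of all tested probe sets were called lower. With 6 arrays limma called 0 of 6, where 0% of all tested probe sets were called lower. At an unadjusted p under 0.05, 2 of 6 were lower with 6 arrays, Gimap3 and Gimap4 on 1424375_s_at, against 0.597% of all tested probe sets. The groups did not overlap for 6 of 6 with 5 arrays, and neither did they for 31.8% of all tested probe sets with knockout lower, so this count alone says little. With 6 arrays it was 2 of 6, against 5.72%. The median difference of the 6 probe sets was -0.97 with 5 arrays and -0.57 with 6, beside medians over all tested probe sets of -0.064 and 0.146.

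The count of 3 depended on single arrays. Of the 6 probe sets, 0 were called when wild-type replicate 1, wild-type replicate 2 or knockout replicate 3 was left out too, and 1, Gimap7, without knockout replicate 1. The corresponding shares of all tested probe sets called lower were 0.0368%, 0.0442%, 0.081% and 0.125%. Without knockout replicate 2, on the other hand, 6 of 6 were called, where 10.3% of all tested probe sets were called lower. In that fit of 4 arrays Gimap7 was at -1.19 (adjusted p = 0.000891) and Gimap1 at -0.38 (adjusted p = 0.0264). The median difference of the 6 probe sets lay between -0.85 and -1.03 in these 5 fits. With array quality weights in limma 6 of 6 were called with 5 arrays and 5 of 6 with 6, but 16.6% and 9.96% of all tested probe sets were then called lower. An adjusted p under 0.1 took in 5 of 6 with 5 arrays, against 3.52%. An unadjusted p under 0.05 with a 1.5-fold difference took in 5 of 6 with 5 arrays and 2 of 6 with 6, against 2.84% and 0.464%. With the replicate number as a block 5 of 6 were called with 5 arrays, against 1.19%. In that fit knockout replicate 3 has no partner, so the differences rest on replicates 1 and 2 of each group and equal those without knockout replicate 3, where 0 of 6 were called.

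Among the knockout arrays, replicate 2 was the lowest for 5 of the 6 probe sets, the exception being Gimap7. Set against the mean of wild-type replicates 1 and 2, Gimap7 lay at -1.09, -1.25 and -1.29 in knockout replicates 1, 2 and 3, and Gimap1 at -0.39, -0.81 and -0.37. Gimap7 was thus further down than Gimap1 in each of the 3 knockout arrays. In wild-type replicate 3, Gimap7, Gimap1, Gimap6 and Gimap4 on 1424374_at lay between -1.30 and -1.42 by the same measure. Gimap3 and the other Gimap4 probe set lay at -0.44 and -0.56 there. No test between members was run.

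The T cell identity genes were compared next, since Gimap transcripts are abundant in T cells. These 13 genes encode parts of the T cell receptor complex, signalling proteins beside it and other surface proteins of T cells such as Cd2, Cd5, Cd6, Cd28 and Thy1. Of the 13, 13 were lower in knockout with 5 arrays, with a median of -0.53, and 0 were called by limma in either direction. With 6 arrays 11 of 13 were lower, with a median of -0.11, and 0 were called. Thy1, a surface protein of T cells, was at -0.54 (adjusted p = 0.0561), Cd3g at -0.79 (adjusted p = 0.151) and Cd3e at -0.60 (adjusted p = 0.156) with 5 arrays. With 5 arrays and with 6, the differences of Gimap3, Gimap6, Gimap7 and both Gimap4 probe sets were below those of all 13 genes. Gimap1 lay among them. Some gaps were well within the SE. With 5 arrays Gimap4 on 1424375_s_at was at -0.81 (SE 0.11), beside Cd5 at -0.80 (SE 0.37) and Cd3g at -0.79 (SE 0.24). With 6, Gimap4 on 1424374_at was at -0.49 (SE 0.40), beside Cd3g at -0.48 (SE 0.37).

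The mean of the 6 Gimap probe sets was 10.10, 9.81 and 10.12 in knockout replicates 1, 2 and 3, and 10.96, 10.90 and 9.86 in wild-type replicates 1, 2 and 3. The mean of the 13 T cell identity genes was 9.86, 9.25 and 9.88 in the knockout arrays and 10.22, 10.19 and 9.05 in the wild-type arrays. Both were low in wild-type replicate 3, and among knockout arrays both were lowest in replicate 2. The Gimap mean minus the T cell mean was 0.24, 0.56 and 0.24 in knockout arrays and 0.74, 0.71 and 0.81 in wild-type arrays. On this relative scale the groups did not overlap in the mean, and in that mean wild-type replicate 3 was no longer apart. Single probe sets still moved both ways in that array, which the mean does not show. The relative wild-type mean of Gimap3 was 1.47 with that array and 1.23 without it. For Gimap4 on 1424375_s_at it was 2.13 and 1.93. Gimap6 had 0.25 and 0.34, Gimap7 0.08 and 0.14, Gimap1 -0.74 and -0.68, and Gimap4 on 1424374_at 1.32 and 1.38.

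To test each probe set on this relative scale, every array was centred on its T cell mean and all probe sets were fitted again, a setting chosen after seeing the data. The T cell mean itself differed by -0.54 with 5 arrays and by -0.16 with 6, so centring raised every difference by that much. Relative to the T cell genes, Gimap7 was at -0.67 with 5 arrays (SE 0.26, 95% interval -1.26 to -0.09, limma adjusted p = 0.159) and at -0.62 with 6 (SE 0.27, limma adjusted p = 0.369). Gimap3 was at -0.48 (limma adjusted p = 0.167) and -0.72 (limma adjusted p = 0.369). Gimap1 was at 0.02 (limma adjusted p = 0.943) and 0.07 (limma adjusted p = 0.942), with a 95% interval of -0.46 to 0.50 with 5 arrays. None of the 6 probe sets passed in either of these fits, while at an unadjusted p under 0.05 limma gave 1 with 5 arrays, Gimap7, and 1 with 6, Gimap3. The share of all tested probe sets lower at that unadjusted p was 0.28% and 0.162%, and the share called lower was 0.0368% with 5 arrays and 0% with 6.

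On the relative scale Gimap3, Gimap6 and Gimap7 did not overlap between the groups in all 6 arrays, and the same held for 0.479% of all tested probe sets with knockout lower. When knockout replicate 2 was dropped as well as wild-type replicate 3, 5 of 6 probe sets were called lower relative to the T cell genes, where 2.11% of all tested probe sets were. In those 4 arrays Gimap7 was at -0.86 (adjusted p = 0.00225), Gimap3 at -0.55 (adjusted p = 0.00386) and Gimap6 at -0.50 (adjusted p = 0.0042). Gimap1 was at -0.05 with a 95% interval of -0.24 to 0.15 (adjusted p = 0.619). No other knockout array was left out on the relative scale. Knockout replicate 2 had the highest relative Gimap mean of the knockout arrays, 0.56 against 0.24 and 0.24, so leaving it out widened the difference.

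**Figure D2:**
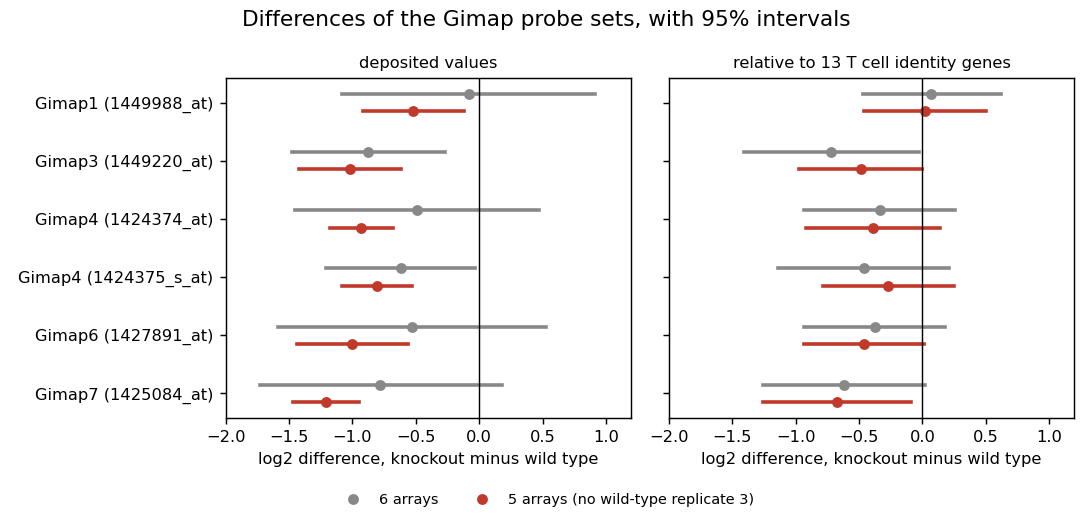
Log2 difference, knockout minus wild type (horizontal axis), of each Gimap probe set with its 95% interval from limma, for 6 arrays (grey) and 5 arrays (red), on the deposited values (left) and relative to the mean of 13 T cell identity genes (right). On the left the 5-array intervals all lie below 0, from -0.52 for Gimap1 to -1.21 for Gimap7, while on the right Gimap1 lies at 0.02 and Gimap7 at -0.67.

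Markers of other cell types were higher in the same knockout arrays. All 15 neutrophil and granulocyte markers were higher with 6 arrays and with 5, and 5 and 9 of them were called higher, where 0.103% and 0.67% of all tested probe sets were. Their summed signal on the linear scale ran from 24926 to 36305 in knockout arrays and from 794 to 1730 in wild-type arrays. Camp, Ltf, Lcn2 and Prg2, genes of granule proteins, were at 5.12, 4.92, 4.91 and 4.56 with 6 arrays. Myeloid and dendritic cell markers were higher for 14 of 15 genes, with summed signals from 8901 to 18698 in knockout arrays and from 2030 to 2889 in wild-type arrays.

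B cell markers were higher for 10 of 10 genes, with summed signals from 4027 to 8224 in knockout arrays and from 944 to 2112 in wild-type arrays. Plasma cell markers were higher for 7 of 7, with sums from 11094 to 22757 in knockout arrays and from 1757 to 7924 in wild-type arrays. Markers of CD8 T cells and NK cells were higher for 13 of 14 with 6 arrays. Their sums ran from 3519 to 9319 in knockout arrays and from 1266 to 2758 in wild-type arrays. The 3 called higher with 5 arrays were Tyrobp, Fcer1g and Eomes, where 0.67% of all tested probe sets were called higher. No other gene of this list was called in either fit. Cd8a and Cd8b1, named after their values were seen, were not called. Cd8a was at -0.01 with 6 arrays (adjusted p = 0.996) and 0.42 with 5 (adjusted p = 0.143). Cd8b1 was at 0.51 (adjusted p = 0.829) and 0.1 (adjusted p = 0.645). For each of these 5 lists the highest sum was that of knockout replicate 2, the array in which 5 of the 6 Gimap probe sets were lowest among knockouts. No marker was at 0 on any array, since RMA gives every probe set a positive value. The part of these cell types in the Gimap differences was not tested. Leaving out knockout replicate 2 cannot test it, since replicates 1 and 3 still had neutrophil and granulocyte sums of 25483 and 24926. The values relative to T cell genes are given above. Erythroid and platelet markers, of which 3 genes were tested, were higher in wild-type replicate 3 than in any other array, with summed signals from 137 to 158 in knockout arrays and of 132, 118 and 487 in wild-type replicates 1, 2 and 3.

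**Figure D3:**
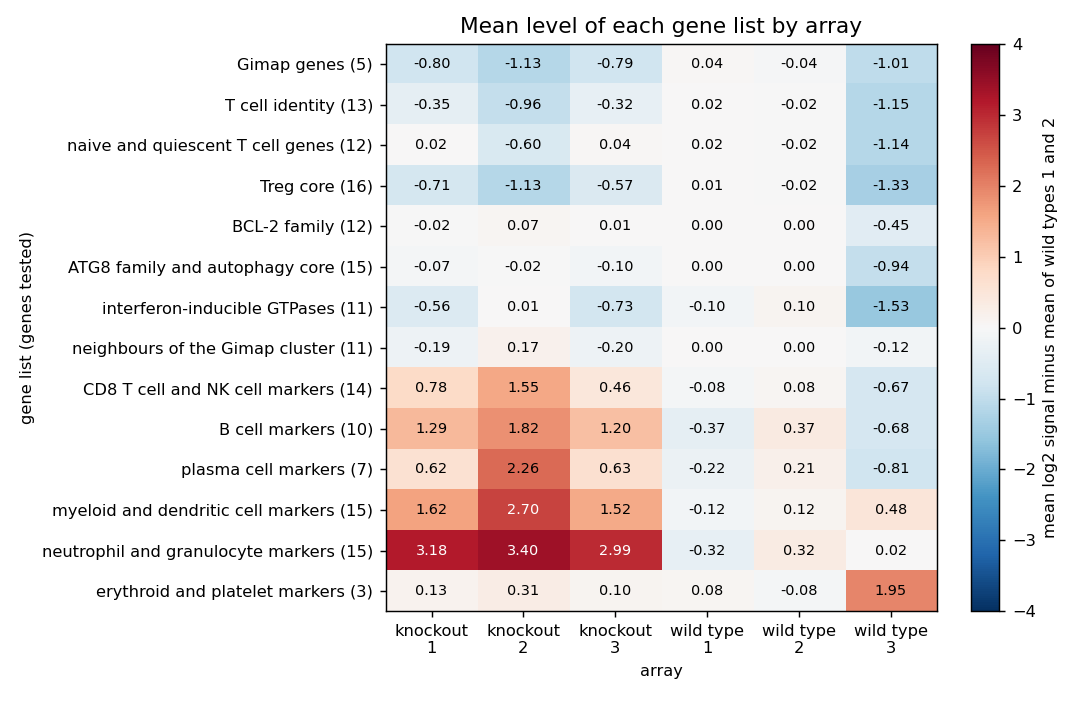
Mean log2 signal of each gene list (rows, with the number of genes tested, 1 probe set a gene) on each array (columns), given as the difference from the mean of wild-type replicates 1 and 2. The Gimap row reads -0.80, -1.13 and -0.79 in knockout arrays, further down than the T cell identity row at -0.35, -0.96 and -0.32, while both are near -1 in wild-type replicate 3, at -1.01 and -1.15.

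Naive and quiescent T cells are among those with high Gimap expression, and a list of their genes had a smaller median difference. The median of 12 such genes was -0.22 with 5 arrays, with 9 lower and 3 higher, and 0.11 with 6 arrays, with 3 lower and 9 higher. None was called by limma in either fit. Igfbp4 was at 0.70 with 5 arrays (adjusted p = 0.133), Satb1, a chromatin organiser of T cells, at 0.13 (adjusted p = 0.795) and Dgka, a brake on T cell receptor signalling, at -0.89 (adjusted p = 0.161). The Treg core list had a median of -0.91 over 16 genes with 5 arrays, with 14 lower and 2 higher, and 4 were called lower, where 0.729% of all tested probe sets were. Those 4 were Penk, Icos, Itgae and Nrp1, from -2.13 for Penk to -0.74 for Itgae. With 6 arrays its median was -0.46 and 0 were called. Set against wild-type replicates 1 and 2, the mean of the Treg core list was -0.71, -1.13 and -0.57 in knockout replicates 1, 2 and 3. The mean of the 5 Gimap genes was -0.80, -1.13 and -0.79 by that measure.

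Genes of cell survival and of autophagy, processes to which Gimap proteins have been linked, were also read out. Of 12 BCL-2 family genes, which set the balance of cell survival and death, 6 were lower and 6 higher with 5 arrays, with a median of 0.02. Limma called 0 of them, where 1.4% of all tested probe sets were called in either direction. Bcl2l11, which encodes the death-promoting protein Bim, was at 0.60 (adjusted p = 0.142), Pmaip1, which encodes Noxa, at 0.38 (adjusted p = 0.358) and Bad at -0.17 (adjusted p = 0.403). Bcl2l1, which encodes the survival protein Bcl-xL, had the lowest difference of the list at -0.63 (adjusted p = 0.0755). Of 15 genes of the ATG8 family and the autophagy core, 8 were lower and 7 higher, with a median of -0.06, and 0 were called. The named genes were Atg3 at 0.14 (adjusted p = 0.432), Gabarap at 0.09 (adjusted p = 0.779) and Map1lc3b at 0.08 (adjusted p = 0.767). Gabarapl2, the binding partner of Gimap6, was at 9.05, 9.09 and 9.05 in knockout arrays and at 9.30, 9.29 and 8.21 in wild-type arrays. Its difference was -0.23 with 5 arrays (adjusted p = 0.204) and 0.13 with 6 (adjusted p = 0.894). Gabarapl2 and Bcl2l1 were named after their values were seen. With 6 arrays the medians of these lists were 0.12 and 0.17, and 0 were called.

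Another family of GTPases in immune cells, the interferon-inducible GTPases, were ordered differently over the knockout arrays. Their median over 11 genes was -0.24 with 5 arrays, with 9 lower and 2 higher, and -0.05 with 6, with 6 lower and 5 higher, and 0 were called by limma in either fit. Relative to wild-type replicates 1 and 2, their mean was -0.56, 0.01 and -0.73 in knockout replicates 1, 2 and 3. That of the 5 Gimap genes was -0.80, -1.13 and -0.79. Knockout replicate 2 was thus the highest knockout array for the interferon-inducible GTPases and the lowest for the Gimap genes. Gbp2 was at 0.18 (adjusted p = 0.764), Irgm1 at -0.16 (adjusted p = 0.791) and Ifi47 at -0.14 (adjusted p = 0.542) with 5 arrays. The lowest differences, named after their values were seen, were those of Iigp1 at -1.24 (adjusted p = 0.229), Gbp6 at -0.84 (adjusted p = 0.13), Gbp3 at -0.80 (adjusted p = 0.0767), and Gbp7 and Irgm2 at -0.74 each (adjusted p = 0.0665 and 0.216). These were within the range of the Gimap differences or, for Iigp1, just below it.

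The genes beside the Gimap cluster had a median difference near 0 and went both ways. Of the 10 protein-coding genes on each side, 14 had a probe set and 11 were tested. With 5 arrays 7 were lower and 4 higher, from -0.57 to 0.75. Their median was -0.05 with 5 arrays and -0.05 with 6, and limma called 0 of them in either fit. Several were dim, so a decrease could hardly show in them. Repin1 lay between 5.55 and 5.78 and Rarres2 between 5.52 and 5.70 over the 6 arrays, near the filter cutoff of 5.18. Atp6v0e2, a subunit of the vacuolar proton pump, was at -0.45 with 5 arrays (adjusted p = 0.146) and Zfp467, a zinc finger gene, at -0.28 (adjusted p = 0.229). The lowest differences, named after their values were seen, were those of Krba1 at -0.57 (adjusted p = 0.165) and Lrrc61 at -0.55 (adjusted p = 0.215). Tmem176a, which lies next but 1 beyond Gimap3 and is a gene of myeloid and dendritic cells, was at 7.12, 8.93 and 6.72 in knockout arrays and at 6.79, 6.88 and 5.99 in wild-type arrays. It was high in knockout replicate 2 alone, and its difference of 0.75 with 5 arrays did not pass (adjusted p = 0.514).

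**Figure D4:**
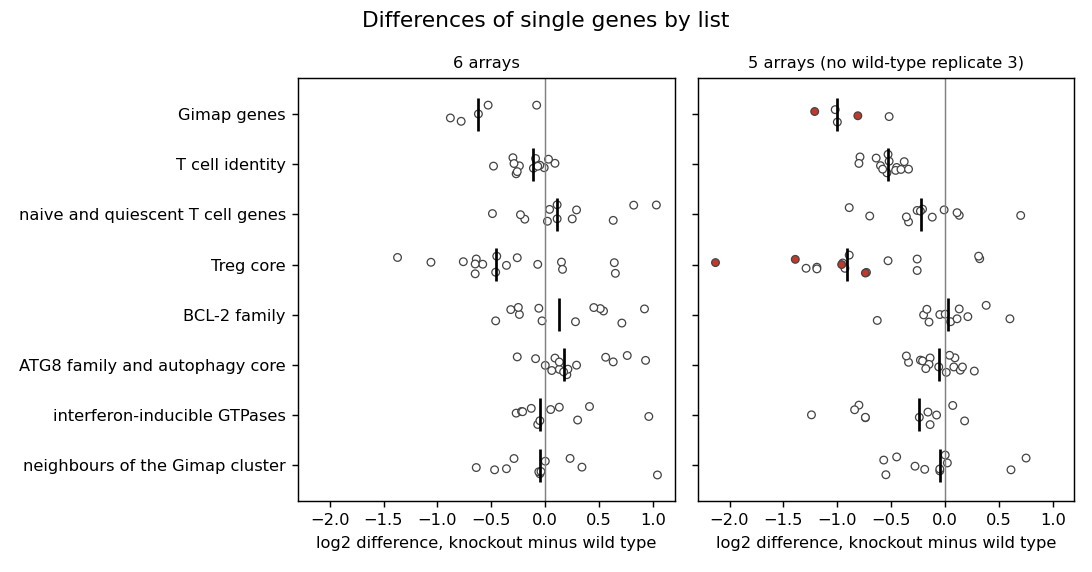
Log2 difference, knockout minus wild type (horizontal axis), of single genes, 1 point a gene, with the median of each list as a black bar and genes past an adjusted p of 0.05 filled, for 6 arrays (left) and 5 arrays (right). With 5 arrays the median of the 5 Gimap genes lies at -1.0. That of the Treg core genes is -0.91 and that of the T cell identity genes -0.53. For the naive and quiescent T cell genes it is -0.22, and for the neighbours of the cluster -0.05.

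The genes most like the Gimap probe sets were found by the root mean square difference between profiles, each centred on its own mean, over 8185 other genes. Over 6 arrays the nearest were Rtf2, a replication termination factor, at 0.074, Lclat1, an acyltransferase of cardiolipin, at 0.096, Suox, which encodes sulfite oxidase, at 0.105, the secretory GTPase gene Rab37 at 0.107, Kcnn4, a calcium-activated potassium channel of T cells, at 0.114 and the ubiquitin ligase gene Rnf167 at 0.117. The median over all these genes was 0.538. The Gimap probe sets themselves lay between 0.105 and 0.267 from their mean profile. Each of them helps to make that profile, so these distances, here and with 5 arrays, are smaller in part by construction. Over 5 arrays the nearest were Suox at 0.052, Rtf2 at 0.057, Slamf6, a receptor of the SLAM family on lymphocytes, at 0.060, Trim59 at 0.064, Sit1, an adaptor that dampens T cell receptor signals, at 0.070, and Actg2, a smooth muscle actin gene, at 0.080. Actg2 lay near the filter cutoff of 5.18, at 5.16, 4.80 and 5.10 in knockout arrays and 5.96, 5.72 and 5.28 in wild-type arrays. The median over all these genes was 0.441 with 5 arrays, and the Gimap probe sets lay between 0.049 and 0.201. Rtf2 shows the shared profile, with 7.97, 7.70 and 7.87 in knockout arrays and 8.80, 8.81 and 7.86 in wild-type arrays. As for Gimap7, its wild-type replicate 3 stood at the knockout level.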

How the data were processed

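RNA levels in CD4+CD25+ Treg were measured on 6 single-colour arrays, 3 of Mbd2-/- and 3 of wild-type mice. Per the labels' protocols, column-purified total RNA was amplified and labelled. The authors deposited 1 log2 value for each probe set and array, made with RMA per the submitters' processing notes. For the RMA software, and for whether all arrays were normalized in 1 run, the sources used here give nothing. Arrays have no read depth, and their number limits the precision.

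Of 22690 probe sets, 64 controls were left out. Probe sets were named from the platform's annotation, updated by gene ID through RefSeq (GRCm38.p6), which also gave gene order and promoter windows. Of the rest, 20380 had 1 symbol, 691 had several and 1555 were not listed. Of 197 list genes, 169 had a probe set.

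Probe sets in the dimmest 40% by mean signal of the 6 arrays (up to 5.18) were left out, and limma 3.58.1 in R 4.3.3 was fitted to the other 13575 with group as the only term and Benjamini-Hochberg adjustment over all of them, at 0.05. All 6 Gimap probe sets passed this filter. Lists used 1 probe set a gene, that with the highest mean. The fit was tested on simulated data, and figures were drawn with matplotlib 3.10.9. Members, lists and the fit of 5 arrays were chosen with earlier results of these data known, so patterns seen before are no independent support. All members were named, with up to 3 genes of each list by smallest p with 6 arrays, up to 4 called ones, and the 6 genes most like the members, though not every gene the rule allows is printed. Alternatives were other filters, variance models, array weights, normalizations, thresholds and probe set rules, the replicate number as a block and each array left out. Centring on T cell identity genes was added after seeing the data.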

Additional observations from a re-analysis of the deposited data

How the results depend on the processing

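All 6 probe sets lay below 0 under every alternative except Gimap1. With 6 arrays, Gimap1 was between -0.52 and 0.18 when arrays were left out in turn, above 0 without knockout replicate 2, wild-type replicate 1 or wild-type replicate 2, and at 0.0746 after centring on the T cell genes, which gave 0.0181 with 5 arrays. With 6 arrays, 0 Gimap probe sets were called, where 0% of all tested probe sets were called lower. Array quality weights, which gave wild-type replicate 3 a weight of 0.0289, called 5, against 9.96%. An unadjusted p under 0.05 with a 1.5-fold difference gave 2, against 0.464%. Leaving out arrays in turn called 0 to 3, against 0% to 0.729%. The median of -0.57 ranged from -0.39 to -0.97 over the arrays left out and stood at -0.90 after quantile normalization again.

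With 5 arrays the count was 3, where 0.729% of all tested probe sets were called lower. It was 6 with array quality weights, against 16.6%, and 5 at an adjusted p under 0.1, against 3.52%. At an unadjusted p under 0.05 with a 1.5-fold difference it was 5, against 2.84%. With a knockout array left out too it was 0 to 6, against 0.081% to 10.3%. Centring on the T cell genes called 0, with a median of -0.43, against 0.0368% of all tested probe sets called lower. It called 5, with a median of -0.52, when knockout replicate 2 was left out too, against 2.11%. No other knockout array was left out on that scale. The cause of this change was not tested. With the replicate number as a block, 5 were called with 5 arrays and 0 with 6, against 1.19% and 0%. Knockout replicate 3 has no partner among the 5 arrays, so that block gives the same differences as leaving it out, with a median of -1.03. Deviations of same-numbered arrays from their group means correlated at 0.15, -0.092 and -0.141. Those of arrays with different numbers correlated at -0.213 to 0.207. With 3 arrays a group and wild-type replicate 3 apart from the rest, these values cannot decide whether the numbers pair the arrays.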
